A study of Mus musculus with 58 samples.

Results

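Proliferation and mitosis genes were followed in 3 kinds of mouse liver myeloid cell during cholestatic injury and colitis. The set held 45 genes listed by name, and each was looked up in the deposited table of normalized counts after its Ensembl identifiers had been paired with symbols by the GENCODE M21 annotation. All 45 were found among the 25307 genes of the table. The cells came from livers of strain 129SV mice and were labelled Kupffer cells (the resident macrophages of the liver sinusoids), monocyte-derived macrophages and monocytes, with 20, 19 and 19 libraries, 58 in all. The 5 injury groups were Sham6w (the control, sham operated, 6 weeks), CBDL2w and CBDL6w (common bile duct ligation for 2 weeks, named as the onset of cholestatic injury, and for 6 weeks, named as advanced injury), DSS (acute colitis induced with dextran sulfate sodium) and CBDL+DSS (advanced cholestatic injury with acute colitis). Each group held 4 libraries of each cell type, except Sham6w with 3 for monocyte-derived macrophages and 3 for monocytes.

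Several limits come with these groups. CBDL2w differed from Sham6w in time as well as in ligation, and the labels used here give no time for DSS or CBDL+DSS. The labels join replicate numbers in 9 libraries, which the design text describes as pooled replicates, and these include 2 of the 3 Sham6w libraries of monocyte-derived macrophages and 2 of the 3 of monocytes. How the cells were sorted is not given in the sources used here. No label says that replicates were separate animals, so p-values measure the spread between these libraries, which may be partly technical. In such bulk libraries, fewer dividing cells and less transcript per dividing cell cannot be told apart.

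The cell cycle is driven by waves of transcription. Genes for replication licensing and DNA synthesis are switched on by E2F factors before S phase, and genes for mitosis peak later, in G2 and M phase, under the B-MYB and FOXM1 factors, whose target promoters often carry a CHR element (cell cycle genes homology region) beside CCAAT boxes bound by NF-Y. In resting cells the DREAM complex holds both groups down. Kupffer cells are seeded before birth and maintain themselves largely by local division, whereas circulating monocytes are products of bone marrow divisions and are mostly not in cycle.

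Depth ranged from 228741 to 521954 reads for Kupffer cell libraries. It ranged from 118687 to 461071 for those of monocyte-derived macrophages and from 235531 to 377725 for monocytes, and between 8885 and 13360 genes were detected in each library. One read was worth at least 0.597 normalized counts, so members at a few normalized counts rest on a few reads. Of the 45 members, 14 reached a mean of 20 normalized counts in at least 1 of the 15 groups and are described singly, and 31 did not. Tests were run on members with at least 10 normalized counts in at least 3 libraries, which left 22 members in Kupffer cells, 21 in monocyte-derived macrophages, 14 in monocytes and 28 in comparisons of cell types over the 58 libraries. The cell labels were set against 8 Kupffer cell markers (Clec4f, Vsig4, Timd4 and others), which took 0.713 to 0.798% of reads in Sham6w Kupffer cells, 0.0623 to 0.276% in Sham6w monocyte-derived macrophages and 0.0329 to 0.0862% in Sham6w monocytes. The 8 monocyte markers (Ly6c2, Ccr2 and others) ran the other way, at 0.0182 to 0.031%, 0.0721 to 0.112% and 0.27 to 0.365%. No 2 replicates matched within sampling noise, since in all 84 pairs of replicates the counts differed with a chi-square of at least 2.81 per degree of freedom.

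Promoters of the members were read from RefSeq on GRCm38.p6, as windows of 300 bases from 250 before to 50 after the annotated start, and 39 of the 45 members were matched (H2afz under its current name H2az1). The windows of the members to which the Kupffer cell results turn are shown for the elements that mark promoters of mitotic genes. Capitals mark CHR elements (TTTGAA) and CCAAT boxes (CCAAT), each searched on both strands, so that TTCAAA and ATTGG are the same elements on the opposite strand, and no match of one overlapped a match of the other in the windows shown.
Prc1 chr7:80294201-80294500 (plus strand): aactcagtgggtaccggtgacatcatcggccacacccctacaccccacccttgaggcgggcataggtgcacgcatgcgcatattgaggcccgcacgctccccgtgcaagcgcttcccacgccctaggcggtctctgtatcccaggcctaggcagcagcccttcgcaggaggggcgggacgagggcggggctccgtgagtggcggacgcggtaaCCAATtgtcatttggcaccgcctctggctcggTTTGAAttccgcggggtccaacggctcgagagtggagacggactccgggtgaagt
Top2a chr11:99024140-99024439 (minus strand): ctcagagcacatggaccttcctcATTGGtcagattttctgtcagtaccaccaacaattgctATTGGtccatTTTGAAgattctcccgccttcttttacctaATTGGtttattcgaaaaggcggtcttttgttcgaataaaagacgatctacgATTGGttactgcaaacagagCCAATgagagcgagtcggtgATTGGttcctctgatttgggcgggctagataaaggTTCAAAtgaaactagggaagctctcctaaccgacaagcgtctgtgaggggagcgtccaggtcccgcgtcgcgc
Cenpa chr5:30666636-30666935 (plus strand): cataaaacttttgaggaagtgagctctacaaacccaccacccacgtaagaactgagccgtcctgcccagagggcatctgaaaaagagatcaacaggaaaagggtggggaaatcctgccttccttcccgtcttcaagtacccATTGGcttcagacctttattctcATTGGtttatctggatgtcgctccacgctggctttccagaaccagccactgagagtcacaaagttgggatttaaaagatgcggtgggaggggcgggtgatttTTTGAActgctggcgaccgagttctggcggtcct
Hmgb2 chr8:57511593-57511892 (plus strand): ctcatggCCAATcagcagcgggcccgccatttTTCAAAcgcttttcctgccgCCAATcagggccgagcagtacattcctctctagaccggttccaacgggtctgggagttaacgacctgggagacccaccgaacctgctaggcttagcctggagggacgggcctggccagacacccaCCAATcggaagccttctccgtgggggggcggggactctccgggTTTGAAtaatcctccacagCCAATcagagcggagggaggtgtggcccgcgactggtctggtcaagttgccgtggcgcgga
Birc5 chr11:117848987-117849286 (plus strand): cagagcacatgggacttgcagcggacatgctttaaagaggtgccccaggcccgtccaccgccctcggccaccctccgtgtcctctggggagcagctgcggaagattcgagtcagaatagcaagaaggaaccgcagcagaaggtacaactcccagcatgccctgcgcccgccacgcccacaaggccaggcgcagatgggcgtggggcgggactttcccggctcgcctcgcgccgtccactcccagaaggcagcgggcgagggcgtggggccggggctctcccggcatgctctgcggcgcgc
A CHR sequence was present in 17 of 39 members, or 43.6%, against 20.2% of the 27025 genes with a window in the table. A CCAAT sequence was present in 32 members, or 82.1%, against 41.1% of all genes. The E2F core GCGGGAA was present in 3 members (Mcm3, Mcm7 and Rrm1), or 7.69%, against 5.29%. In the Prc1 window the CHR ran from base -5 to base 1, counted from the start with no base 0, and the CCAAT box from -37 to -33. In Top2a and Hmgb2, 2 CHR sequences each were found with 6 and 4 CCAAT boxes, and in Cenpa 1 CHR lay just after the start, at bases 17 to 22. The Birc5 window held none of these letters, nor did those of Pttg1 and Tuba1b, and that of Hmgn2 held 1 CCAAT box from -3 to 2. These matches describe sequence and not binding.

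The summed level of the 45 members differed most from control in Kupffer cells of the DSS group. The Sham6w libraries of Kupffer cells held 525, 379, 446 and 437 normalized counts in the set (447 ± 60.0, SD, n = 4), and the DSS libraries held 883, 913, 888 and 878 (891 ± 15.6, SD, n = 4). The 4 DSS libraries lay within a narrow range that no Sham6w library approached, and the ratio of means was 1.99. The set took 0.143% of reads in Sham6w and 0.306% in DSS on average. The CBDL+DSS libraries held 503, 454, 483 and 455 (474 ± 23.9, SD, n = 4), which overlapped Sham6w and stayed below every DSS library. CBDL2w lay between, at 519 to 625 (567 ± 43.3, SD, n = 4), as did CBDL6w, at 572, 580 and 587 with 1 library, replicate 2, at 880 (655 ± 150, SD, n = 4). The sum carries no test, because the members were chosen with results of these libraries known.

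In the other cell types the order was different. Sham6w monocyte-derived macrophages held 797 to 1124 (921 ± 177, SD, n = 3), DSS 756 to 927 (834 ± 78.3, SD, n = 4), CBDL2w 461 to 512 (493 ± 23.2, SD, n = 4), CBDL6w 512 to 665 (595 ± 75.0, SD, n = 4) and CBDL+DSS 557 to 630 (601 ± 32.4, SD, n = 4). The 3 groups with ligation thus lay below every Sham6w library of this cell type, with ratios of means to Sham6w of 0.536, 0.646 and 0.653, while DSS overlapped Sham6w. Monocytes held 564 to 640 in Sham6w (608 ± 39.1, SD, n = 3), 512 to 665 in DSS, 446 to 497 in CBDL2w, 401 to 444 in CBDL6w and 461 to 583 in CBDL+DSS. The sum is dominated by the 4 members with the largest counts, H2afz, Tuba1b, Smc4 and Hmgb2, and without them the Kupffer cell ratio for DSS was 2.4 and for CBDL+DSS 1.12.

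**Figure D1:**
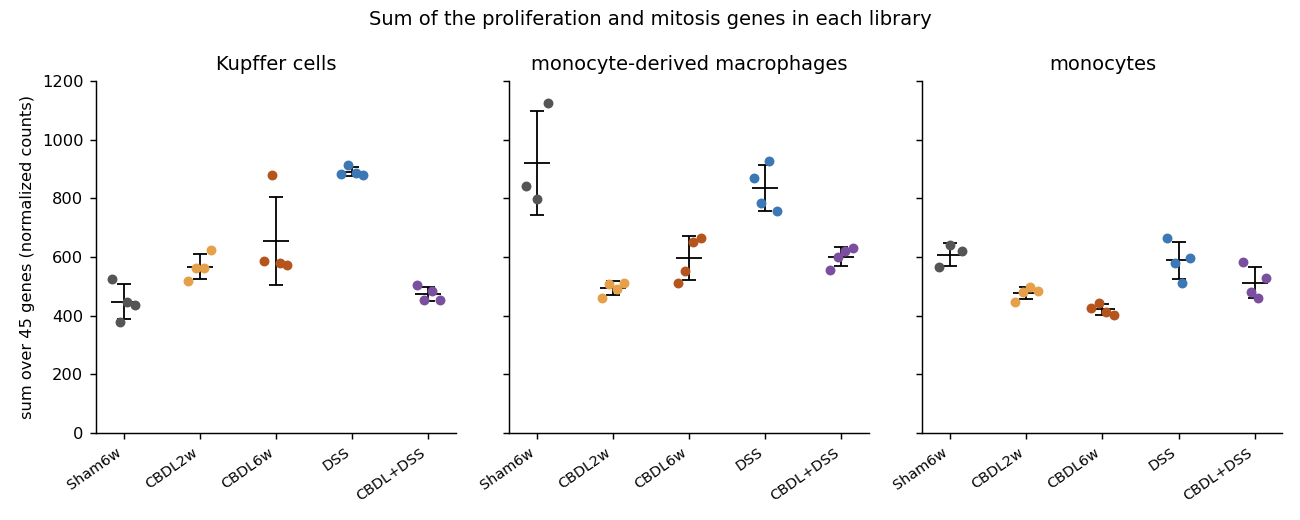
Summed normalized counts of the 45 proliferation and mitosis genes (y axis) in each library (points) of the 5 injury groups (x axis), 1 panel per cell type, with the mean and SD as lines. In Kupffer cells the 4 DSS libraries sit between 878 and 913, above the Sham6w and CBDL+DSS libraries, and in monocyte-derived macrophages the CBDL2w, CBDL6w and CBDL+DSS libraries sit below the 3 Sham6w libraries.

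The first comparison set each injury group against Sham6w within a cell type. In Kupffer cells, DSS was accompanied by higher transcripts of 8 of the 22 tested members, 36.4%, and by lower transcripts of none. They were Birc5, Prc1, Cenpa, Pttg1, Top2a, Hmgb2, Hmgn2 and Tuba1b. Over all 6159 tested genes, 3.34% were called higher by limma's moderated test at a Benjamini-Hochberg adjusted p under 0.05, the rule used throughout. Of the 22 members, 21 had a positive log2 difference, with a median of 1.44 against -0.07 over all tested genes. A member that passed the filter only through the DSS libraries had to differ, so these counts describe the tested members and not all 45. Differences are on the scale of log2 of the normalized count plus 1, which understates the change of low genes.

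Of the 12 kinetochore, spindle and chromosomal passenger members, 3 were called. The summed level of the 12 was 16.3 ± 8.57 normalized counts in Sham6w Kupffer cells (SD, n = 4), with a range of 7.88 to 24.8, and 102 ± 17.0 in DSS (SD, n = 4), with a range of 86.0 to 126. Birc5 (survivin, the passenger complex subunit that brings Aurora B to centromeres, on GRCm38 chromosome 11, 117849251 to 117855743, plus strand) was at 0, 1.82, 1.99 and 0 normalized counts in the Sham6w libraries, from 5 reads in all. In the DSS libraries it was at 33.1, 37.5, 19.2 and 30.8, from 119 reads. The groups were far apart, with no Sham6w library near the lowest DSS library, and Birc5 rose by 4.15 ± 0.48 (log2 difference ± SE, adjusted p = 1.25e-05, limma).

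Prc1, which bundles the antiparallel microtubules of the spindle midzone (chromosome 7, 80294450 to 80316259, plus strand), had no read in the 4 Sham6w libraries and 8.76 to 19.8 normalized counts in the DSS libraries, from 60 reads. It was at least 23.4-fold higher in DSS, taking 3 reads over the Sham6w group as the limit that a count of 0 allows (adjusted p = 0.00976, limma). Cenpa, the histone H3 variant that marks centromeres (chromosome 5, 30666777 to 30674830, plus strand), was at 0.606 to 1.06 in Sham6w and at 3.58 to 20.0 in DSS, with 1 DSS library (replicate 1) well below the other 3. It rose by 2.78 ± 0.85 (log2 difference ± SE, adjusted p = 0.046, limma), a call that was kept when DSS replicate 1 was left out and lost when any of the other 7 libraries was, with adjusted p up to 0.134. Tpx2, which activates Aurora A on spindle microtubules, had 13.5 in DSS and 5.24 in Sham6w on average (adjusted p = 0.356) and was not called. The other members of this role, Aurka, Aurkb, Cdca8, Bub1, Bub1b, Cenpe, Cenpf and Nusap1, were under the filter in Kupffer cells. Cenpe, the kinetochore motor, averaged 6.19 against 1.33, Nusap1 4.82 against 0, and Bub1 had no read in either group.

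Anaphase control was represented mainly by Pttg1, which encodes securin, the inhibitor of separase (chromosome 11, 43420250 to 43426251, minus strand). Its Sham6w libraries held 40.5, 4.85, 0 and 8.30 normalized counts and its DSS libraries 57.2, 66.3, 65.9 and 60.5. Sham6w replicate 1 was far above the other controls and still below every DSS library. Pttg1 rose by 3.20 ± 0.73 (log2 difference ± SE, adjusted p = 0.0115, limma), and the call held with each of the 8 libraries left out in turn. Cdc20, the co-activator of the anaphase promoting complex, and Ube2c, the ubiquitin-conjugating enzyme that works with it, averaged 3.11 and 3.60 in DSS against 0 and 0.891 in Sham6w and were under the filter.

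Among chromosome and chromatin proteins, 3 members were called. Top2a, topoisomerase II alpha, which untangles sister chromatids (chromosome 11, 98992943 to 99024189, minus strand), was at 6.39, 2.43, 6.95 and 3.32 in Sham6w and at 17.0, 20.0, 11.0 and 30.8 in DSS. The groups did not overlap, and Top2a rose by 1.84 ± 0.45 (log2 difference ± SE, adjusted p = 0.0163, limma), a call lost without Sham6w replicate 2 or DSS replicate 4, with adjusted p up to 0.061. Hmgb2, a DNA-bending chromatin protein (chromosome 8, 57511907 to 57515999, plus strand), was at 27.7, 7.28, 18.9 and 20.7 in Sham6w and at 52.7, 82.6, 46.7 and 49.6 in DSS. It rose by 1.68 ± 0.37 (log2 difference ± SE, adjusted p = 0.00876). Hmgn2, a nucleosome-binding protein (chromosome 4, 133964738 to 133968650, minus strand), was at 17.0, 26.1, 13.9 and 14.1 in Sham6w and at 50.1, 85.1, 92.4 and 54.6 in DSS. It rose by 1.92 ± 0.33 (log2 difference ± SE, adjusted p = 0.00117). Both calls held with each library left out. The end of the Hmgn2 transcript matched Gm10282 and Gm20379 at 95% identity or more, so how reads were shared between these genes is uncertain.

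The other members of this role were not called. Mki67, the Ki-67 protein that coats mitotic chromosomes, was at 2.98 to 4.98 in Sham6w and 7.32 to 14.3 in DSS, groups that did not overlap (log2 difference 1.33, adjusted p = 0.107). Smc4, a condensin subunit (chromosome 3, 69004738 to 69034623), was at 47.3 to 57.6 and 61.5 to 87.6, also without overlap (adjusted p = 0.169). H2afz, the H2A.Z histone variant (chromosome 3, 137864487 to 137866922, plus strand), was at 79.7 to 104 and 106 to 147 (log2 difference 0.45, adjusted p = 0.123). Smc2, the partner of Smc4, averaged 15.5 and 19.9, and Ezh2, the H3K27 methyltransferase, 18.4 and 24.8, with adjusted p of 0.604 and 0.669.

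Of the tubulins and stathmin, Tuba1b, an alpha-tubulin (chromosome 15, 98931425 to 98934565, minus strand), was called. It was at 93.7, 60.6, 68.5 and 68.1 in Sham6w and at 104, 130, 117 and 125 in DSS, with 1 Sham6w library near the lowest DSS library. It rose by 0.72 ± 0.20 (log2 difference ± SE, adjusted p = 0.0312, limma), and the call was lost without Sham6w replicate 2, 3 or 4 or DSS replicate 2, 3 or 4, with adjusted p up to 0.104. Tubb5, a beta-tubulin (chromosome 17, 35833921 to 35838306, minus strand), averaged 12.6 and 19.3 (adjusted p = 0.296). Stmn1, stathmin, which destabilises microtubules, averaged 1.81 and 8.35 (adjusted p = 0.159).

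Of the genes of replication licensing and DNA synthesis, Mcm3, Mcm5, Mcm7, Pcna and Tk1 were tested in Kupffer cells, and none was called. Mcm2, Mcm4, Mcm6, Rrm1, Rrm2, Tyms and Dut were under the filter there and could not be called. The 6 Mcm subunits of the replicative helicase summed to 41.7 ± 12.4 normalized counts in Sham6w Kupffer cells and 60.7 ± 6.56 in DSS (SD, n = 4 each), and the 6 members of DNA synthesis and nucleotide supply to 46.8 ± 11.5 and 54.1 ± 8.30. Mcm3 (chromosome 1, 20802968 to 20820312, minus strand) was at 10.6 to 28.5 in Sham6w and 15.0 to 29.5 in DSS, and Pcna, the polymerase clamp (chromosome 2, 132249162 to 132253314, minus strand), at 19.1 to 40.7 and 17.9 to 36.6. In both genes the groups overlapped almost wholly, with log2 differences of 0.17 and -0.12 and adjusted p of 0.783 and 0.859. Mcm5 averaged 14.1 in DSS and 5.44 in Sham6w (log2 difference 2.13, adjusted p = 0.0687), where Sham6w replicate 4 held 18.3 and the other 3 held 0 to 2.43. Tk1, thymidine kinase, averaged 10.5 and 5.83 (adjusted p = 0.133). Whether the mitotic members differed from the replication members in their response was not tested.

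Among cyclins, Cdk1 and the Cks subunits, Cks1b, which docks substrates on cyclin-dependent kinases (chromosome 3, 89415472 to 89418383, minus strand), was at 6.39, 6.67, 4.96 and 15.8 in Sham6w and at 18.8, 27.5, 24.7 and 39.7 in DSS. The groups did not overlap, and the difference of 1.68 (log2) had an adjusted p of 0.0622, so Cks1b was not called. It was called under 4 of the alternatives described in the closing section. The mitotic cyclins Ccnb1 and Ccnb2 averaged 4.21 and 3.87 in DSS against 0 and 1.73, Ccna2 5.55 against 1.48, and Cdk1 6.65 against 3.87, all under the filter. With no filter, Ccnb1 and Cdc20 were called and Tuba1b and Cenpa were not.

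**Figure D2:**
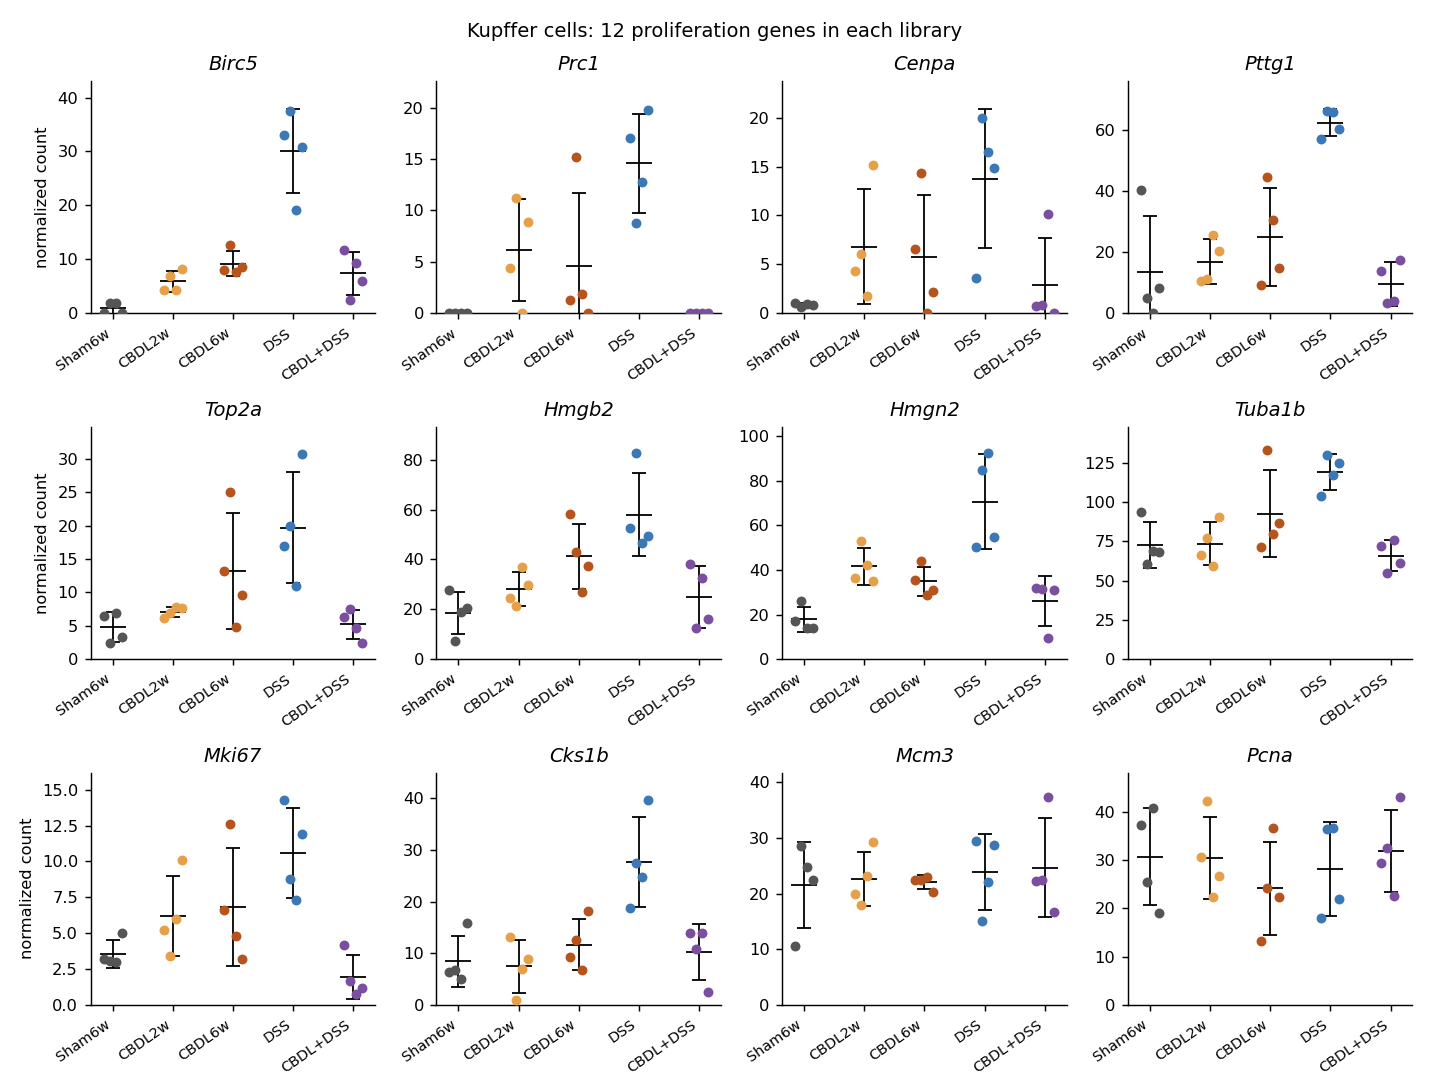
Normalized counts (y axis, linear) of 12 members in each Kupffer cell library (points) of the 5 injury groups (x axis), with the mean and SD as lines. Birc5, Prc1, Pttg1, Top2a and Hmgn2 lie above Sham6w in the 4 DSS libraries and lower in CBDL+DSS, whereas Mcm3 and Pcna overlap between all groups.

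Other measured properties of the Kupffer cell libraries moved with DSS as well, and their part in these results was not tested. The 8 monocyte markers took 0.044 to 0.0921% of reads in DSS against 0.0182 to 0.031% in Sham6w, with none of the 8 at 0 in either group. The Kupffer cell markers took 0.524 to 0.693% against 0.713 to 0.798%, the 8 macrophage markers 0.612 to 0.72% against 1.19 to 1.52%, ribosomal protein genes 11.5 to 13.2% against 7.53 to 8.48% and mitochondrial transcripts 3.49 to 5.2% against 6.46 to 9%. Depth was 236874 to 326416 reads in DSS and 285086 to 521954 in Sham6w. The 8 measured neutrophil precursor markers were at 0 in both groups, and T and NK cell markers took at most 0.00276% in DSS, with 6 of 9 at 0. Scaling every library to the same total, instead of by size factors, turned the split of all called genes from 206 higher and 280 lower to 333 and 205, and the 8 members stayed called.

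Ligation alone was accompanied by smaller differences in Kupffer cells. At CBDL2w, 2 of 22 members were called higher against 1.09% of all genes. Birc5 was at 4.36, 6.87, 4.30 and 8.24 and rose by 1.98 ± 0.48 (log2 difference ± SE, adjusted p = 0.0226, limma), a call lost without Sham6w replicate 1 or 4 or CBDL2w replicate 2 or 4 (adjusted p up to 0.0747). Hmgn2 was at 36.6, 53.2, 42.1 and 34.9, above every Sham6w library, and rose by 1.21 ± 0.33 (adjusted p = 0.0448), a call that held only without Sham6w replicate 2 and was lost when any other of the 8 libraries was left out (adjusted p up to 0.133). At CBDL6w, 1 member was called higher against 1.22% of all genes. This was Birc5, at 7.93, 12.6, 7.68 and 8.53, which rose by 2.55 ± 0.48 (adjusted p = 0.00263) whichever library was left out. Of the 22 members, 19 had positive differences at CBDL2w and 19 at CBDL6w, with medians of 0.49 and 0.67 against -0.03 and -0.06 over all genes, from comparisons that share the Sham6w libraries. Equal totals turned the split of all called genes from 67 higher and 100 lower to 130 and 88 at CBDL2w, and from 75 and 125 to 101 and 100 at CBDL6w.

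The Kupffer cell markers took 0.278 to 0.42% of reads at CBDL2w and 0.193 to 0.412% at CBDL6w, below Sham6w. The 8 monocyte markers, none at 0, took 0.0583 to 0.0799% and 0.0418 to 0.081%, above the 0.0182 to 0.031% of Sham6w. The part of both lists in the differences after ligation was not tested. Between CBDL2w and CBDL6w, limma called no member and 0% of all genes. In that comparison 1 member had an unadjusted p under 0.05, and edgeR and DESeq2 on recovered reads called no member.

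Colitis was then examined in ligated mice. In CBDL+DSS Kupffer cells, 1 member was called higher than in Sham6w, against 1.61% of all genes, a split of 99 higher and 105 lower that became 122 and 89 with equal totals. It was Birc5, at 11.8, 2.49, 9.32 and 5.97 (log2 difference 2.15 ± 0.48, adjusted p = 0.0112, limma), a call lost without the joined replicate 1+3 (adjusted p = 0.0553). Against CBDL6w, limma called no member and 1.74% of all genes. There, 6 members had an unadjusted p under 0.05, edgeR and DESeq2 called none, and 5 of 22 differences were positive, with a median of -0.45 against 0.08.

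The difference between the effect of DSS without ligation (DSS minus Sham6w) and with it (CBDL+DSS minus CBDL6w) was itself tested. It was negative and called for 9 of the 22 members, 40.9%, against 2.27% of all genes, a split of 231 higher and 140 lower over all genes that became 181 and 183 with equal totals. Of these 9, Birc5, Prc1, Top2a and Mki67 passed the filter only with the DSS libraries, where they are high, so the share describes the tested members and is no support for the set. Birc5 differed by -4.56 ± 0.68 (log2 ± SE, adjusted p = 0.00054, limma). Its CBDL6w libraries lay at 7.68 to 12.6 and its CBDL+DSS libraries at 2.49 to 11.8, which overlapped, whereas Sham6w and DSS lay at 0 to 1.99 and 19.2 to 37.5, which did not.

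Prc1 had no read in the 4 CBDL+DSS libraries, 0 to 15.2 normalized counts in CBDL6w and 8.76 to 19.8 in DSS (adjusted p of the difference 0.0105). Pttg1 was at 13.9, 3.32, 3.89 and 17.3 in CBDL+DSS and at 9.25, 44.8, 30.7 and 14.9 in CBDL6w, against 57.2 to 66.3 in DSS (difference -4.54 ± 1.03, log2 ± SE, adjusted p = 0.0126, limma). Top2a was at 6.27, 7.48, 4.66 and 2.39 in CBDL+DSS, where the CBDL6w libraries held 4.80 to 25.1. Its difference was -2.91 ± 0.64 (adjusted p = 0.0105). In both genes the CBDL+DSS libraries overlapped the Sham6w libraries and lay below every DSS library.

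Hmgb2 was at 38.3, 12.5, 32.6 and 16.1 in CBDL+DSS and at 58.2, 43.0, 26.9 and 37.3 in CBDL6w (difference -2.48 ± 0.52, log2 ± SE, adjusted p = 0.00729, limma). Hmgn2 was at 32.1, 31.6, 9.32 and 31.0 against 35.7, 43.9, 28.8 and 30.9 (difference -2.46 ± 0.46, adjusted p = 0.00316). Tuba1b was at 71.8, 54.8, 76.1 and 60.9 against 71.4, 133, 79.7 and 86.4 (difference -1.17 ± 0.28, adjusted p = 0.0178). For these 3 genes, DSS was above Sham6w in every library, while CBDL+DSS overlapped CBDL6w. Mcm5 and Mki67 were called for the difference although neither was called for DSS alone. Mcm5 was at 0 to 5.57 in CBDL+DSS and 7.47 to 17.9 in CBDL6w (difference -4.60 ± 1.02, adjusted p = 0.0108). Mki67 was at 0.777 to 4.18 and 3.20 to 12.6 (difference -2.72 ± 0.72, adjusted p = 0.0293), a call lost without CBDL6w replicate 2, Sham6w replicate 2, DSS replicate 1 or CBDL+DSS replicate 4+5 or 6 (adjusted p up to 0.0671). The other 8 calls held with each of the 16 libraries left out in turn.

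Pcna and Mcm3 had differences of 0.56 and -0.07 and adjusted p of 0.53 and 0.956. Cenpa, H2afz, Smc4 and Cks1b had differences of -3.63, -0.81, -0.95 and -1.98 that were not called, with adjusted p of 0.0712, 0.0598, 0.0762 and 0.138. CBDL+DSS Kupffer cells were sequenced to 359823 to 512401 reads. Ribosomal protein genes took 9.11 to 11.4% of their reads, mitochondrial transcripts 4.55 to 5.75%, macrophage markers 1.42 to 1.64%, monocyte markers 0.0242 to 0.056% and Kupffer cell markers 0.466 to 0.604%. The part of these in the difference was not tested.

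**Figure D3:**
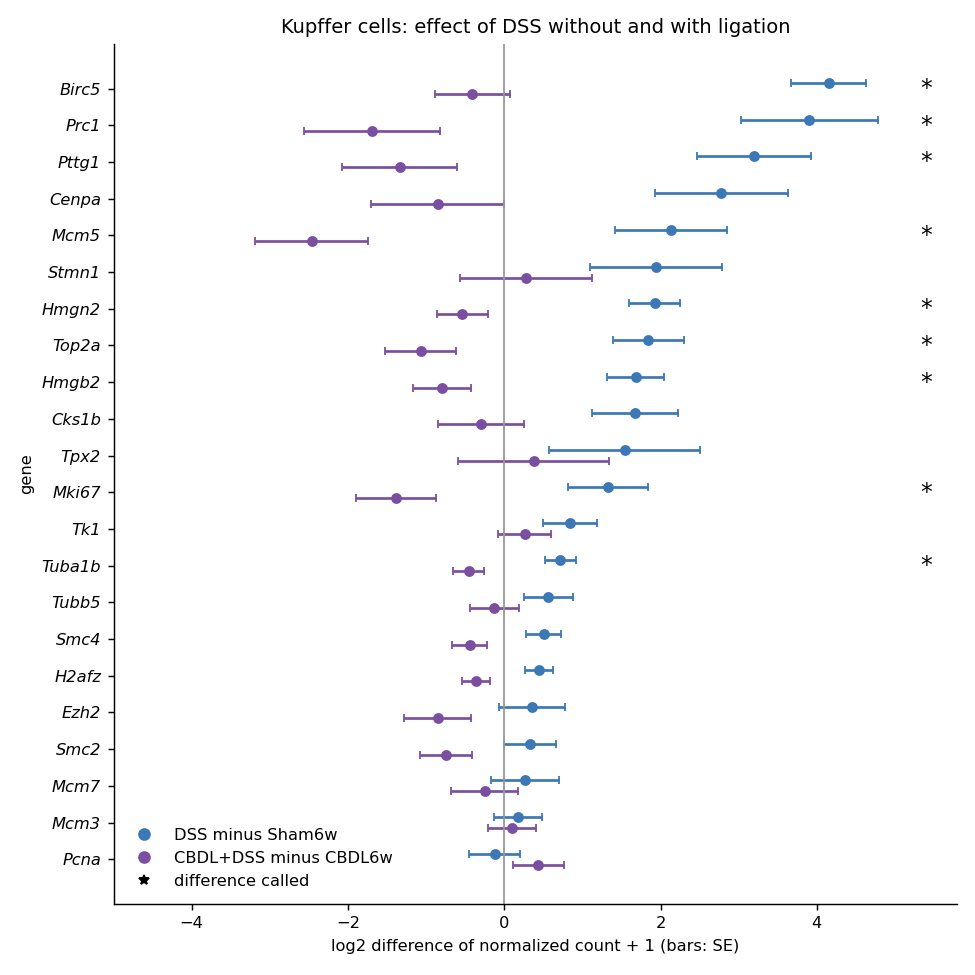
Log2 difference of the normalized count plus 1 (x axis, bars are SE) for the 22 tested members in Kupffer cells, for DSS minus Sham6w and for CBDL+DSS minus CBDL6w, with an asterisk where the difference between both was called. The 9 genes with an asterisk lie to the right of 0 for DSS alone and to the left of 0 with ligation.

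In monocyte-derived macrophages, the members called after ligation were lower than in Sham6w. Whether the effect of ligation differed from that in Kupffer cells was not tested. At CBDL2w, 2 of 21 tested members were called lower against 1.37% of all genes. Top2a was at 54.5, 22.8 and 29.5 normalized counts in Sham6w (replicates 1+2+5, 3 and 4+6) and at 1.89, 0.745, 9.81 and 6.97 in CBDL2w, and it fell by 2.91 on the log2 scale (SE 0.58, adjusted p = 0.005, limma). Hmgb2 was at 144, 90.2 and 69.7 in Sham6w and at 36.5, 28.3, 44.1 and 46.8 in CBDL2w, and it fell by 1.32 (SE 0.28, adjusted p = 0.0105). In both genes every CBDL2w library was below every Sham6w library. Smc4 averaged 35.7 against 94.9, with an adjusted p of 0.0527.

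At CBDL6w, 2 members were called lower against 0.806% of all genes. Hmgb2 was at 42.1, 33.2, 44.7 and 31.3 and fell by 1.35 on the log2 scale (adjusted p = 0.0164, limma). Hmgn2 was at 14.6, 13.6, 26.3 and 34.1 against 102, 75.0 and 48.1 in Sham6w, and it fell by 1.75 (SE 0.38, adjusted p = 0.0192). Top2a averaged 7.37 there, with an adjusted p of 0.0781. The Hmgb2 calls at CBDL2w and CBDL6w were lost without Sham6w replicate 1+2+5 (adjusted p of 0.0615 and 0.0824), the shallowest library of the series, and the Hmgn2 call without that library or CBDL6w replicate 1 or 2 (adjusted p up to 0.0824).

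CBDL+DSS had 3 members called lower against 5.2% of all genes. Top2a was at 3.68, 4.43, 3.01 and 7.22 (adjusted p = 0.00444, limma) and Hmgb2 at 34.9, 34.6, 33.2 and 44.1 (adjusted p = 0.00308), and both calls held with each library left out. Cks2, the other Cks subunit, was at 4.95, 13.0 and 19.6 in Sham6w and at 5.51, 1.77, 1.51 and 3.21 in CBDL+DSS, groups that overlapped in 1 library. It fell by 1.69 on the log2 scale (SE 0.51, adjusted p = 0.0395, limma), a call lost without Sham6w replicate 3 or 4+6 or CBDL+DSS replicate 2, 3 or 4+5 (adjusted p up to 0.152). DSS alone gave no called member against 2.07% of all genes, with 4 members at an unadjusted p under 0.05 and none called by edgeR or DESeq2. Tubb5 was at 29.1 to 34.4 in DSS and 13.7 to 18.5 in Sham6w, without overlap, and had an adjusted p of 0.109.

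The 3 remaining comparisons in monocyte-derived macrophages gave no called member by limma, edgeR or DESeq2. Between CBDL2w and CBDL6w, 0.0823% of all genes were called and 3 members had an unadjusted p under 0.05. Between CBDL+DSS and CBDL6w, 4.16% of all genes were called and 4 members had an unadjusted p under 0.05. For the difference in the effect of DSS with and without ligation, 2.09% of all genes were called and 2 members had an unadjusted p under 0.05. Markers of other cells differed between Sham6w and the ligated groups of this cell type. The 8 B and plasma cell markers took 0.0244 to 0.144% of Sham6w reads, with none at 0, against 0.00366 to 0.00889% at CBDL2w, 0.00462 to 0.0121% at CBDL6w and 0.00251 to 0.00728% in CBDL+DSS. The 9 T and NK cell markers took 0.0135 to 0.0429% in Sham6w against 0.002 to 0.00671% at CBDL2w, 0.00546 to 0.0134% at CBDL6w and 0.000553 to 0.00208% in CBDL+DSS. The 8 Kupffer cell markers, none at 0, took 0.0623 to 0.276% in Sham6w against 0.0165 to 0.0456%, 0.0278 to 0.172% and 0.0223 to 0.0837%. Monocyte markers ran the other way, at 0.0721 to 0.112% in Sham6w against 0.198 to 0.249%, 0.178 to 0.319% and 0.124 to 0.154%. The part of these markers in the results was not tested.

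Monocytes showed few differences among the 14 members tested. At CBDL2w, 1 member was called lower against 5.71% of all genes, and at CBDL6w 1 against 5.33%. Both were Tuba1b, at 65.6, 79.7 and 89.5 in Sham6w, 36.9, 55.9, 50.2 and 38.0 at CBDL2w and 40.3, 44.8, 36.4 and 51.8 at CBDL6w. Both ligated groups lay below every Sham6w library, with log2 differences of -0.79 and -0.84 (SE 0.23 each, adjusted p of 0.025 and 0.0203, limma). The CBDL2w call was lost without Sham6w replicate 3+6 or 4 or CBDL2w replicate 1 or 4 (adjusted p up to 0.105), and the CBDL6w call without Sham6w replicate 3+6 or 4 or CBDL6w replicate 3 (adjusted p up to 0.0853). With shares near the background, these counts describe Tuba1b and not the set.

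H2afz was the member called in monocytes between CBDL+DSS and CBDL6w, where 0.295% of all genes were called higher. It was at 198, 191, 218 and 222 in CBDL+DSS and at 133, 133, 104 and 160 in CBDL6w, and it rose by 0.66 ± 0.15 (log2 difference ± SE, adjusted p = 0.0409, limma). The 2 groups did not overlap, but the call was lost with any library left out except CBDL6w replicate 4 (adjusted p up to 0.125). Limma called no member for DSS (1.59% of all genes, no member at an unadjusted p under 0.05), for CBDL+DSS (13.1%, 2 members), between CBDL2w and CBDL6w (0%, 1 member) or for the difference in the effect of DSS (0.311%, no member). Neither edgeR nor DESeq2 called a member in these, except that DESeq2 called Ezh2 lower in CBDL+DSS. Ezh2 was at 18.1 to 42.0 in Sham6w monocytes and 9.21 to 12.3 in CBDL+DSS. Endothelial markers took 0.188 to 0.336% of Sham6w monocyte reads and 0.00938 to 0.0243% at CBDL6w, with 1 of 10 at 0 there, and their part in these differences was not tested.

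**Figure D4:**
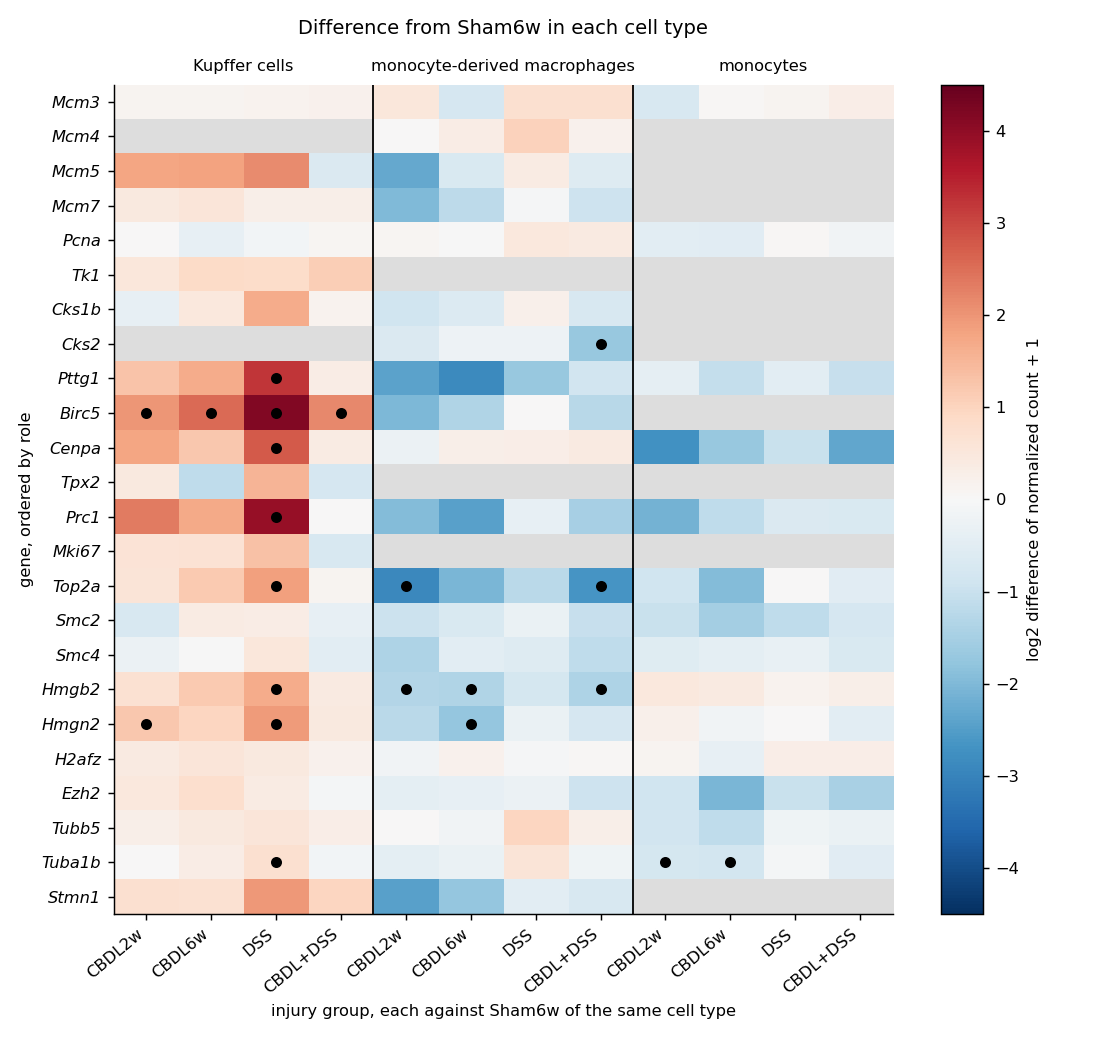
Log2 difference from Sham6w of the normalized count plus 1 (colour) for 24 members (y axis, ordered by role) in each injury group of each cell type (x axis), with a dot where the difference was called and grey where the member was not tested. The DSS column of Kupffer cells holds 8 dots in red, and the dots in the ligated groups of monocyte-derived macrophages and monocytes are in blue.

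The cell types were also compared with each other. In Sham6w, the members called between Kupffer cells and monocyte-derived macrophages were lower in Kupffer cells. They were 10 of 28 tested members, 35.7%, against 6.83% of all genes called lower. Of the 10, Ccna2 and Nusap1 passed the filter only with Sham6w libraries of monocyte-derived macrophages, where they are high. The share thus describes the tested members and is no support for the set. Hmgb2 (18.6 against 101, log2 difference -2.45, adjusted p = 8.58e-07, limma), Hmgn2 (-1.995, adjusted p = 0.000105), Birc5 (-2.80, adjusted p = 0.00107) and Top2a (-2.66, adjusted p = 0.00314) kept the call with each library left out. H2afz (-0.87, adjusted p = 0.00147) and Prc1 (0 against 12.6 normalized counts, at least 20.2-fold lower, adjusted p = 0.023) lost it without replicate 4+6 of the monocyte-derived macrophages, with adjusted p of 0.0823 and 0.14. Ccna2, Nusap1, Stmn1 and Mcm5 were under the level for single description and had adjusted p of 0.0306, 0.036, 0.0413 and 0.0499. The Ccna2 call was lost without Kupffer cell replicate 2, 3 or 4 (adjusted p up to 0.0897), and that of Nusap1 without any of the 4 Kupffer cell replicates (up to 0.0625). Without monocyte-derived macrophage replicate 3 or 4+6, Ccna2 fell under the filter and could not be tested. The same held for Nusap1 without replicate 1+2+5 of those cells. The Stmn1 call was lost without Kupffer cell replicate 1, 2 or 4 or monocyte-derived macrophage replicate 1+2+5 or 4+6 (up to 0.181). That of Mcm5 was lost without any library but Kupffer cell replicate 4 (up to 0.22). Nusap1, which binds spindle microtubules, had no read in Sham6w Kupffer cells and was at least 11.2-fold lower. Each B and plasma cell and each T and NK cell marker also averaged higher in Sham6w monocyte-derived macrophages than in Sham6w Kupffer cells. Among them were Jchain (141 against 0.951 normalized counts) and Gzma (47.6 against 0.932). The part of these markers here, and in the comparison of DSS effects that uses the same Sham6w libraries, was not tested.

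Averaged over the 5 injury groups, 3 of 28 members were called between these cell types. Tk1 was higher in Kupffer cells (9.61 against 2.29, log2 difference 1.85 ± 0.22, adjusted p = 1.32e-09, limma), against 18% of all genes called higher, and Hmgb2 and H2afz were lower (-0.70 and -0.56, adjusted p of 0.000156 and 4e-07), against 14.5% called lower. The effect of DSS itself differed between Kupffer cells and monocyte-derived macrophages for 3 members, all larger in Kupffer cells, where 0.185% of all genes were called in that direction (a split of 14 higher and 51 lower that became 23 and 43 with equal totals). They were Hmgb2 (2.47 ± 0.48, log2 ± SE, adjusted p = 0.00359), Birc5 (4.12 ± 0.86, adjusted p = 0.00807) and Hmgn2 (2.24 ± 0.51, adjusted p = 0.0207). The Hmgn2 call was lost without monocyte-derived macrophage replicate 1+2+5 of Sham6w or 5+6 of DSS (adjusted p up to 0.0795). Birc5 in DSS was at 9.46 to 13.6 in monocyte-derived macrophages, against 3.26 to 23.6 in Sham6w, so that the groups overlapped.

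Against monocytes, Kupffer cells were lower in 3 of 28 members in Sham6w, against 8.54% of all genes. H2afz differed by -0.93 (adjusted p = 0.000429, limma) with each library left out. Hmgb2 differed by -1.15 (adjusted p = 0.0153), a call lost without Kupffer cell replicate 2 or monocyte replicate 4 (adjusted p up to 0.159), and Cenpa by -2.96 (adjusted p = 0.0297), a call lost without any but Kupffer cell replicate 1 (adjusted p up to 0.0983). Over the 5 groups, 13 of 28 members, 46.4%, were higher in Kupffer cells, against 21.6% of all genes, and 2, or 7.14%, were lower, against 19.6%. Of the 13, Tk1, Mki67, Cdk1 and Tpx2 passed the filter only with Kupffer cell libraries, so the share describes the tested members. Each of the 13 was called with every library left out that could be tested. They span the roles, with Tk1 (9.61 against 0.793, log2 difference 2.67 ± 0.22, adjusted p = 5.61e-15), Birc5 (1.73, adjusted p = 2.93e-07), Tuba1b (0.52, adjusted p = 4.57e-06), Mcm7 (1.52, adjusted p = 8.41e-06), Top2a (1.304, adjusted p = 0.000117), Cks1b (1.24, adjusted p = 0.000296) and Mcm3 (0.87, adjusted p = 0.000326) leading by adjusted p. The other 6 were Pttg1, Tpx2, Cdk1, Smc2, Mcm5 and Mki67, with adjusted p of 0.000719 to 0.00229. H2afz and Hmgb2 had log2 differences of -0.68 and -0.63 (adjusted p of 1.83e-09 and 0.000425). Tk1, which salvages thymidine for DNA synthesis, had no read in the 4 DSS monocyte libraries and 2.43 to 15.5 normalized counts in the 20 Kupffer cell libraries.

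The effect of DSS differed between Kupffer cells and monocytes for Birc5 (5.45 ± 0.86, log2 ± SE, adjusted p = 0.000394, limma), against 0.0794% of all genes in that direction (6 higher and 12 lower, or 10 and 12 with equal totals). Birc5 was at 0 to 1.23 in DSS monocytes and at 1.31 to 4.83 in Sham6w monocytes. Monocyte-derived macrophages were above monocytes for 2 members in Sham6w, against 1.95% of all genes, namely Top2a (2.56, adjusted p = 0.0185) and Hmgb2 (1.295, adjusted p = 0.0248). The Top2a call was lost without replicate 1+2+5 of either cell type (adjusted p up to 0.355), and the Hmgb2 call also without monocyte replicate 3+6 (adjusted p up to 0.198). Markers of other cells differed between these Sham6w groups, with Jchain averaging 141 against 49.9 normalized counts and Gzma 47.6 against 14.6. The endothelial marker Ptprb (16.1 against 221) and the dendritic cell marker Siglech (6.03 against 73.2) ran the other way. The part of such markers was not tested. Over the 5 groups, 12 of 28 members, 42.9%, were higher in monocyte-derived macrophages than in monocytes, against 6.71% of all genes. Of the 12, Birc5, Mcm5, Mcm7, Tk1, Cks1b and Stmn1 did not pass the filter on monocyte libraries alone and were tested only through macrophage libraries. The share thus describes the tested members and is no support for the set. Tuba1b (0.57, adjusted p = 4.88e-06), Birc5 (1.43, adjusted p = 7.22e-05), Top2a (1.45, adjusted p = 0.000134) and Mcm5 (1.38, adjusted p = 0.00061) had the smallest adjusted p, and Tubb5, Ezh2, Mcm7, Tk1, Cks1b, Hmgn2, Stmn1 and Smc2 had adjusted p of 0.00357 to 0.038. With each of 38 libraries left out in turn, the calls of Hmgn2, Stmn1 and Smc2 were kept in 28, 28 and 22 fits, with adjusted p up to 0.0635, 0.0636 and 0.0874. For the effect of DSS, no member and 0.0397% of all genes were called between these 2 cell types by limma, 2 members had an unadjusted p under 0.05, and edgeR and DESeq2 called none.

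**Figure D5:**
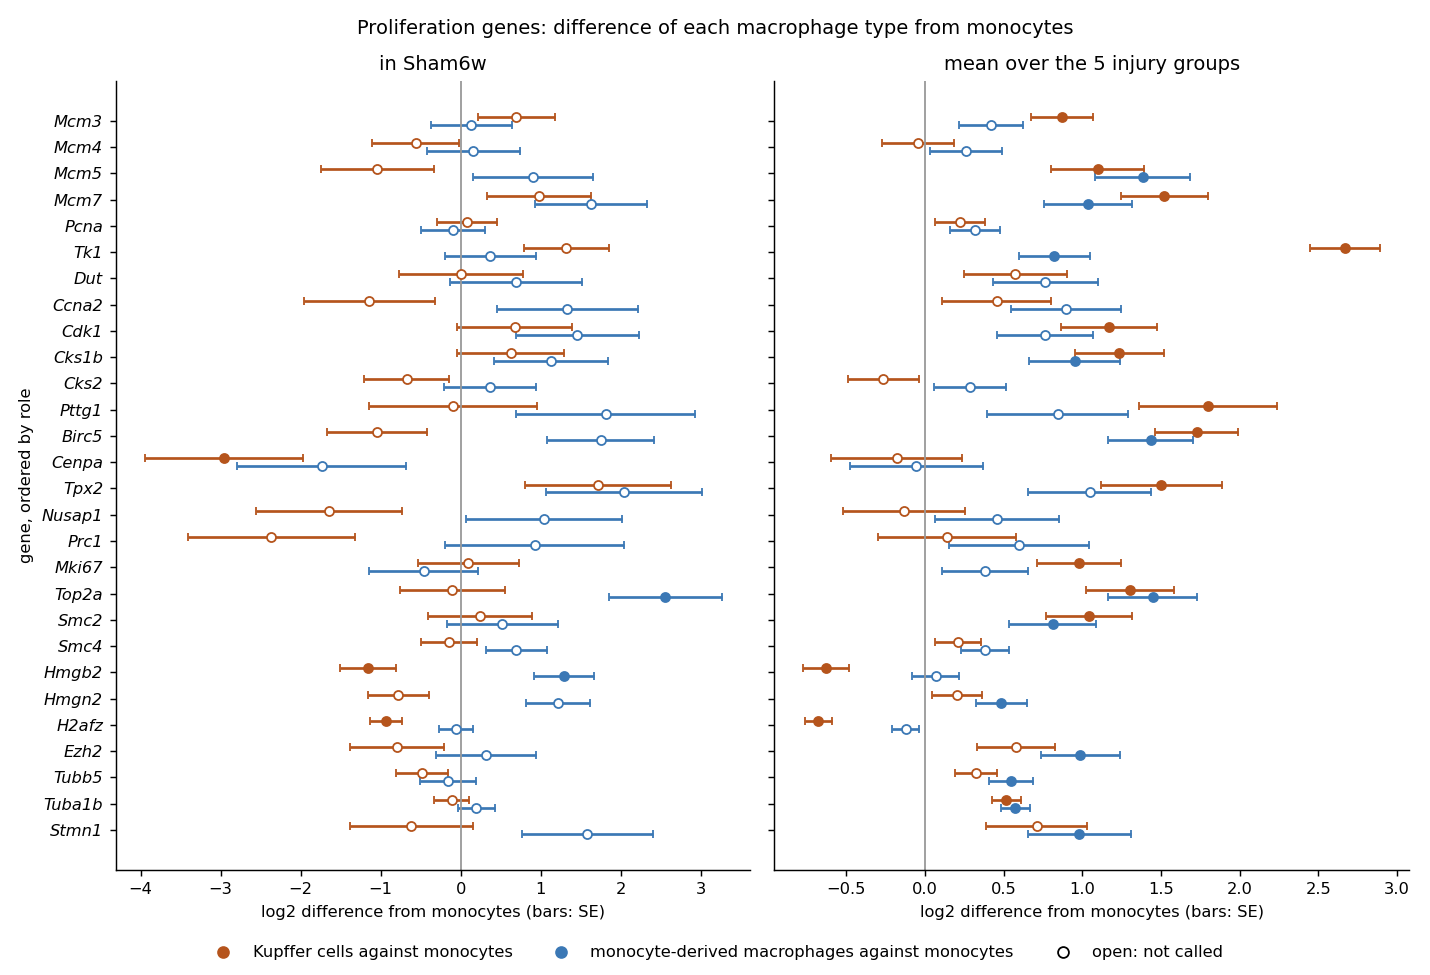
Log2 difference of the normalized count plus 1 from monocytes (x axis, bars are SE) for Kupffer cells and for monocyte-derived macrophages, for the 28 members tested over the 58 libraries (y axis, ordered by role), in Sham6w (left) and averaged over the 5 injury groups (right), with filled points for called differences. Tk1 of Kupffer cells lies at 2.67 on the right, and H2afz and Hmgb2 of Kupffer cells lie to the left of 0 in both panels.

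Other genes of the cell cycle were taken from 4 lists that do not overlap the members, and 1 of them was called in DSS Kupffer cells. Of 25 other S phase genes 7 were tested, with 6 positive differences, a median of 0.32 and none called. Of 30 other G2 and M phase genes 5 were tested, with 4 positive, a median of 0.43 and none called. Of 8 G1 cyclins and kinases 7 were tested, with 3 positive and none called. Of 14 cell cycle inhibitors and quiescence genes 8 were tested, and 1 was called. This was Txnip, a thioredoxin-binding protein that restrains glucose uptake and growth, which averaged 65.7 against 150 in Sham6w (log2 difference -1.29 ± 0.32, adjusted p = 0.0178, limma). Txnip also fell at CBDL2w (56.1, adjusted p = 0.0178) and CBDL6w (46.6, adjusted p = 0.00173), and its DSS effect differed with ligation (1.97, adjusted p = 0.0134), as did that of Cdkn1b, the p27 inhibitor of cyclin-dependent kinases (1.45, adjusted p = 0.0269).

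In ligated monocytes, the G1 cyclin Ccnd2 averaged 7.98 at CBDL2w, 11.2 at CBDL6w and 9.90 in CBDL+DSS against 61.0 in Sham6w (adjusted p of 0.000164, 0.000933 and 0.00057, limma), and Ccnd1 and Txnip were called lower in the same 3 groups. Endothelial markers took 0.188 to 0.336% of Sham6w monocyte reads against 0.0104 to 0.0131%, 0.00938 to 0.0243% and 0.016 to 0.0254% in these groups. The 8 dendritic cell markers took 0.0257 to 0.0491% against 0.000397 to 0.00378%, 0.000647 to 0.00251% and 0.000688 to 0.00344%, and neutrophil precursor markers 0.00295 to 0.0289% against 0 to 0.0043%, 0.000358 to 0.00194% and 0.00265 to 0.0105%. The part of these markers in the falls was not tested. In monocyte-derived macrophages Ccnd2 fell in CBDL+DSS (17.9 against 68.3, adjusted p = 0.000317). Averaged over the groups, Kupffer cells differed from monocytes in inhibitors as well as in members, with 3 of 11 tested genes of the inhibitor list higher and 7 lower, against 21.6% of all genes called higher and 19.6% lower. Btg1, an antiproliferative gene, averaged 38.4 against 132 (adjusted p = 7.21e-21), and Cdkn1a, the p21 inhibitor, 19.3 against 127 (adjusted p = 7.77e-18). The list of G1 cyclins and kinases was mixed. Myc, which drives entry into the cycle, averaged 10.5 against 1.34 (adjusted p = 1.32e-09), and Ccnd1 and Cdk6 were also called higher. Ccnd2 (14.0 against 26.8, adjusted p = 0.0188) and Ccnd3 (25.1 against 56.2, adjusted p = 7.04e-05) were called lower. Against the same 21.6%, 4 of 7 tested genes of the S phase list were higher in Kupffer cells, led by the DNA ligase Lig1 (41.1 against 10.2), and of the G2 and M phase list 5 of 7, led by the kinesin Kif23 (7.90 against 1.93). Most genes of both lists were under the filter. The called ones other than Lig1 averaged under 10 normalized counts in monocytes. These counts thus describe the tested genes and are no support for the members.

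Counting limits apply to the low members. The 31 members under 20 normalized counts in every group had their highest group means between 1.34, for the checkpoint kinase Bub1, and 17.4, and 14 of them could be tested over the 58 libraries. Of the 45 members, 14 overlap a gene on the opposite strand, among them Top2a, Tuba1b, Prc1, Mki67, Ezh2, Tk1, Mcm7 and Smc2, and the strand setting of the counting is not given in the sources used here. Besides Hmgn2, the transcript ends of Cks1b, Cenpf and Mcm5 matched other genes in the table at 95% identity or more over at least 100 bases, so their counts may be shared.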

How the data were processed

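RNA of the 58 libraries was sequenced from the 3' end (QuantSeq 3' mRNA FWD with UMIs, per the labels). Per the submitters' processing notes, UMI-tools 1.0.1, Trimmomatic 0.39, STAR 2.7.5b, RSEM 1.3.1, DESeq2 and the build GRCm38.p6 were used, and no settings are stated in those notes as used here. The values are a signal: gene counts that the authors divided by 1 size factor per library before they deposited them. Whole reads were recovered within 0.01 for 100.0% of values.

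Groups came from the labels. Log2(normalized count + 1) was fitted with limma 3.58.1 (trend, robust, R 4.3.3, two-sided), once per cell type and once over all libraries, on genes with at least 10 normalized counts in at least 3 libraries. P-values were adjusted by Benjamini-Hochberg over all genes of each of 30 comparisons, with a threshold of 0.05. Every p in the text is from limma unless another tool is named. On recovered reads, edgeR 4.0.16 called 433 genes and DESeq2 1.42.0 called 632 for DSS in Kupffer cells, against 486 by limma. Other alternatives were a pseudocount of 5, no filter, equal totals, a replicate block, single replicate numbers only, and leaving out each library. The fits within a cell type were also run on simulated counts with known changes in DSS. That run did not cover pooled libraries or the fit over all libraries.

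Members with a group mean of at least 20 are described singly, as are called members below it, by adjusted p and range. From each other list, up to 3 called genes with the smallest adjusted p are named. Members and lists were chosen with earlier results of these data known.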

Additional observations from a re-analysis of the deposited data

Results flagged for a closer look

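Within groups of 4 libraries, 5 of 53 checks found 1 library far from the others, where chance gives about 1 in 20 for normally distributed values. Members that rest on a few reads need not follow that distribution. The 53 include Prc1 in Sham6w and in CBDL+DSS Kupffer cells, which was at 0 in all 4 libraries and could not be flagged. A check was of the summed level in any such group, or of a single member in a Kupffer cell group. Single members were the ones called for DSS against Sham6w and were not checked in other cell types. That all 5 lay in Kupffer cells therefore says nothing about the cell types. CBDL6w replicate 2 had a summed level of 879.6 normalized counts (the others 571.8 to 586.8) and Prc1 at 15.2 (the others 0 to 1.92). In CBDL+DSS replicate 4+5, Cenpa was at 10.1 (the others 0 to 0.831) and Hmgn2 at 9.32 (the others 31 to 32.1). In DSS replicate 2, Hmgb2 was at 82.6 (the others 46.7 to 52.7).

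The effect of DSS in Kupffer cells differed with ligation, by limma's test of the difference on the log2 scale, for Mki67 (-2.716), Top2a (-2.91), Pttg1 (-4.541), Hmgb2 (-2.479), Hmgn2 (-2.459), Tuba1b (-1.17), Birc5 (-4.561), Mcm5 (-4.598) and Prc1 (-5.602, a fitted value that depends on the pseudocount, since 2 of its 4 groups had no read). Set against monocyte-derived macrophages, Kupffer cells had a larger effect of DSS for Hmgb2 (2.465), Hmgn2 (2.238) and Birc5 (4.119), and set against monocytes for Birc5 (5.447).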

How the results depend on the processing

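No called member reversed direction under an alternative. Of the results on single genes, 1957 alternatives kept the call and 228 lost it. For DSS against Sham6w in Kupffer cells, 8 members were called, 9 with a pseudocount of 5, equal totals, edgeR or DESeq2 (Cks1b in addition), 8 with no filter, and 5 to 8 with 1 library left out, the lowest without Sham6w replicate 2 or DSS replicate 4. For the difference with ligation, 9 were called, and 8 to 11 with 1 library left out. The median of that difference over all genes was 0.14, and -0.01 with DESeq2.

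In Kupffer cells, CBDL2w had 1 called member with a pseudocount of 5 or no filter (0 to 2 with 1 library left out). CBDL6w had 4 with DESeq2 and 2 with single replicate numbers (1 to 2), CBDL+DSS against Sham6w 0 with single numbers (0 to 1) and CBDL+DSS against CBDL6w 0 to 1. In monocyte-derived macrophages, CBDL2w had 5 with DESeq2 (1 to 4 with 1 library left out), CBDL6w 0 to 2 and CBDL+DSS 2 to 3. With single numbers all 3 had 0. In monocytes, CBDL2w had 2 with a pseudocount of 5 or DESeq2 (0 to 1), CBDL6w 2 with a pseudocount of 5 and 0 with no filter (0 to 2), and CBDL+DSS against CBDL6w 0 with no filter (0 to 1). With single numbers these 3 had 0, and CBDL+DSS against Sham6w had 1 with DESeq2.

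Kupffer cells against monocyte-derived macrophages had 2 in Sham6w with single numbers (5 to 8 with 1 library left out). Over the 5 groups they had 6 with a pseudocount of 5 and 5 with edgeR (3 to 5), and for the DSS effect 5 with a pseudocount of 5 and 0 with single numbers (2 to 4). Against monocytes they had 1 to 3 in Sham6w and 14 to 17 over the 5 groups. Monocyte-derived macrophages against monocytes had, in Sham6w, 4 with a pseudocount of 5, 1 with edgeR, 1 with DESeq2 and 0 with single numbers (0 to 3), and over the 5 groups 5 with single numbers (9 to 14). The cause of these changes was not tested, except that single numbers leave 1 Sham6w library each of monocyte-derived macrophages and monocytes, assumed to vary like the other groups.

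Replicate numbers paired the libraries weakly at most. Deviations of same-numbered libraries correlated between -0.055 and 0.067 within a cell type (72 pairs across injury groups, median 0). Between cell types of the same injury group they correlated between -0.061 and 0.095 (45 pairs, median 0.035). Whether such libraries share a source was not tested, and the main fits carry no pairing. With a replicate block, the DSS comparison in Kupffer cells had 6 called members. A replicate number found in only 1 library of a cell type, such as a joined one, formed its own block, so that library dropped out of the comparison. This left 1 Kupffer cell library in CBDL+DSS, and 1 Sham6w library each in monocyte-derived macrophages and monocytes. Block results within a cell type that use these groups are not given, because a loss of libraries cannot be told from an effect of pairing there. Within monocyte-derived macrophages and within monocytes, the block gave 0 called members for CBDL2w against CBDL6w and for CBDL+DSS against CBDL6w. Between cell types, where blocks were replicate numbers within an injury group, unmatched libraries dropped out as well. There the block gave 2 for Kupffer cells against monocyte-derived macrophages in Sham6w and 1 for their DSS effect. Against monocytes it gave 1 in Sham6w and 0 for the DSS effect.

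Without its 4 highest members, the summed level had ratios to Sham6w of 2.4 for DSS in Kupffer cells and 0.494 for CBDL6w in monocyte-derived macrophages. In monocytes they were 0.575 for CBDL2w, 0.578 for CBDL6w, 0.815 for DSS and 0.638 for CBDL+DSS. With 1 library left out, the ratio for DSS in Kupffer cells was 1.9 to 2.12. Depth limits the low members: 31 of 45 stayed under 20 normalized counts in every group, and 28 of 45 passed the filter over the 58 libraries.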
